A study of Mus musculus with 2 samples.

Results

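Neuropeptides are short signalling peptides that cells cut out of larger precursor proteins and release from secretory granules. The report describes 10 genes that encode such precursors besides the main islet hormones and the neuropeptide Y family: Ucn3, Pdyn, Penk, Vip, Adcyap1, Gal, Cartpt, Cck, Gast and Nmb. They were chosen by name, and all 10 were found among the 38924 Ensembl genes of the 2 deposited files after the values of transcripts were summed per gene. RNA came from isolated pancreatic islets, which hold the endocrine cells of the pancreas. The donors were male CAST/EiJ mice (CAST), inbred from the wild subspecies Mus musculus castaneus, and male C57BL/6J mice (B6), the strain of the reference genome. All mice were 10 weeks old and fed standard chow, and the labels name no treatment. Islets of 2 mice per strain were pooled, kept during isolation in buffer with 16.7 mM glucose, and 250 islets of each pool gave 1 library, so there were 2 groups of 1 library and no replicates. The libraries held 104324631 expected counts in CAST and 76600903 in B6. No difference between strains could be tested, and the 95% intervals below reflect the number of reads and neither amplification nor differences between mice. In bulk RNA, fewer cells of a type and less RNA per cell cannot be told apart.

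In islets some of these peptides are made by the endocrine cells and some arrive through nerve endings. Urocortin 3 is a peptide of mature beta cells that acts on neighbouring delta cells. Vasoactive intestinal peptide (VIP) and PACAP are nerve peptides that raise cyclic AMP in beta cells, whereas galanin is a nerve peptide that restrains insulin release. Dynorphins and enkephalins are opioid peptides, and cholecystokinin (CCK) and gastrin are gut peptides that share the end of their chain.

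The precursors are read best from their coding sequence, because one precursor can hold several copies of a peptide. The opioid core, which starts with tyrosine, 2 glycines and phenylalanine and ends in methionine or leucine, was searched for in the coding sequence of the main transcript of Penk and of Pdyn (GENCODE M21, GRCm38, B6 reference sequence, given 5′ to 3′ on the coding strand). Penk (268 codons) held 7 cores, 6 ending in methionine and 1 in leucine, and Pdyn (248 codons) held 3, all ending in leucine. Each core of 15 bases is in capitals below and the 6 bases on either side are in lower case. A pair of codons for lysine or arginine, where prohormone convertases cut, stood before 7 of 7 Penk cores and after 5, and before and after 3 of 3 Pdyn cores. The first core of Penk, which ends in methionine, its sixth, which ends in leucine, and the 3 of Pdyn are given to show how far the genes share this stretch. The 15 bases of Penk core 6 are identical to those of Pdyn core 2 and agree at 12 positions with Pdyn core 1 and at 13 with Pdyn core 3.
Penk core 1, chr4:4134328-4134354, minus strand: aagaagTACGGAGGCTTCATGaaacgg
Penk core 6, chr4:4133935-4133961, minus strand: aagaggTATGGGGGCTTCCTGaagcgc
Pdyn core 1, chr2:129688232-129688258, minus strand: aaacgcTATGGCGGCTTTTTGcgcaaa
Pdyn core 2, chr2:129688124-129688150, minus strand: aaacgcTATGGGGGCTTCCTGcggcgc
Pdyn core 3, chr2:129688067-129688093, minus strand: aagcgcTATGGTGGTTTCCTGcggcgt

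Other precursors share peptide sequence too. CCK and gastrin share the end of their chain, which is followed by the glycine that becomes the terminal amide. The 15 bases in capitals encode the last 4 residues of that end and this glycine, and were identical at 14 positions, with all 5 residues identical. The codon before them also encodes glycine in both genes.
Cck, chr9:121490098-121490124, minus strand: atgggcTGGATGGATTTTGGCcggcgc
Gast, chr11:100336852-100336878, plus strand: tacggaTGGATGGACTTTGGCcgccgc

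VIP and PACAP, from Vip and Adcyap1, belong to the secretin and glucagon family. The 84 bases that encode VIP were set beside the first 84 of PACAP without gaps, and capitals mark the bases that are the same in both. Of the bases 62 (73.8%) and of the 28 residues 19 (67.9%) were identical.
Vip, chr10:5644024-5644107, plus strand: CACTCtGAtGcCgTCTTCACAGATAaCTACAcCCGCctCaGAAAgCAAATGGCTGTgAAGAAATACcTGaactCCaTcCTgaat
Adcyap1, chr17:93203990-93204073, plus strand: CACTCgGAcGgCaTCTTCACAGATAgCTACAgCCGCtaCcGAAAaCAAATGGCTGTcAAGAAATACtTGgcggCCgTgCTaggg

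Despite this likeness the longest transcript of no other gene matched that of any of the 10 genes at 95% identity, so their counts do not rest on a division between near-identical copies. Nmb, on chromosome 7 from 80902227 to 80905076, overlaps Sec11a on the same strand, which had 6553 counts in CAST and 4724 in B6. Penk overlaps the noncoding gene A830012C17Rik on the opposite strand, which had 2 counts in CAST and 0 in B6, where a count of 0 allows up to 3.

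Ucn3 stood far above the other precursors in both libraries, and the remaining genes were low. Levels between genes are given as TPM, the transcripts of a gene in each 1000000 transcripts, which account for transcript length. The 10 genes together held 53318 counts in CAST, 0.0511% of the library (exact Clopper-Pearson interval 0.0507 to 0.0515), and 44919 in B6, 0.0586% (0.0581 to 0.0592). Ucn3 made up 94.6% of these counts in CAST and 85.2% in B6. The other 9 genes held 2873 counts in CAST (0.00275%, interval 0.00265 to 0.00286) and 6642 in B6 (0.00867%, 0.00846 to 0.00888). At a TPM of 1 or more 6 of the 10 were detected in CAST and 4 in B6, against 12540 of all genes in CAST and 12811 in B6. Penk and Cartpt passed this level in CAST and not in B6.

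The order of levels was Ucn3, Pdyn, Vip, Gal, Cartpt, Penk, Nmb, Gast, Cck and Adcyap1 in CAST, by TPM. Neighbours were compared by the ratio of their TPM with an exact 95% interval from the 2 counts. In CAST this interval included 1 for Vip over Gal (1.15, 0.995 to 1.33) and for Gast over Cck (1.85, 0.795 to 4.39), so counting error does not settle their order, and it lay above 1 for the other 7 pairs. The order in B6 was Ucn3, Pdyn, Vip, Gal, Nmb, Cartpt, Penk, Gast, Adcyap1 and Cck. In B6 the interval included 1 for each pair of neighbours from Nmb through Cartpt and Penk to Gast, and for Adcyap1 over Cck (1.41, 0.392 to 7.63). The 4 highest genes came in the same order in both libraries.

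**Figure D1:**
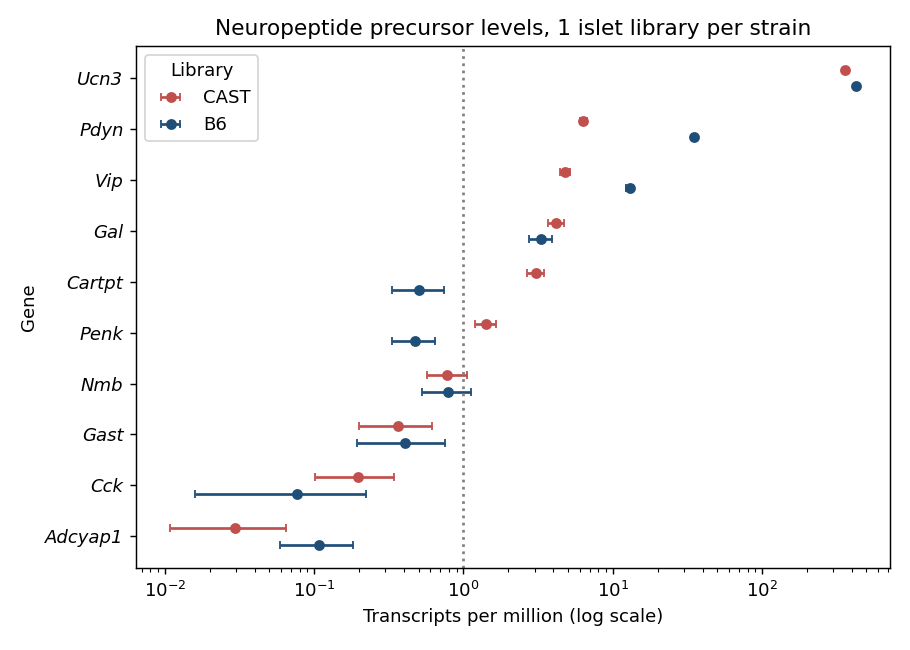
Level of the 10 precursor genes in TPM on a log axis, with CAST (red) above B6 (blue) for each gene; points are single libraries, bars are 95% Poisson counting intervals and the dotted line is a TPM of 1. Ucn3 lies at 359 TPM in CAST and 423 TPM in B6, and no other gene exceeds 34.9 TPM.

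Ratios between the strains were taken as the log2 of CAST over B6 of counts scaled with TMM factors, which align the bulk of genes in 2 libraries, with 0.5 added. A gene counted as different at 2-fold or more if it had 100 or more counts over both libraries, which 6 of the 10 precursors had. Of these 6, Cartpt and Penk were at least 2-fold higher in CAST, Pdyn and Vip at least 2-fold higher in B6, and Ucn3 and Gal within 2-fold. Across all 14768 genes with 100 or more counts, 13.2% were at least 2-fold apart, 7.18% with the higher value in CAST and 5.99% with the higher value in B6. The median log2 ratio of the 6 genes was 0.40, against 0.02 over all 14768. It is the midpoint of Ucn3 and Gal and describes no shift of the set, since 2 of the 6 were called in each direction. With 2 libraries there is no pattern across samples by which to look for genes that behave like one of these.

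**Figure D2:**
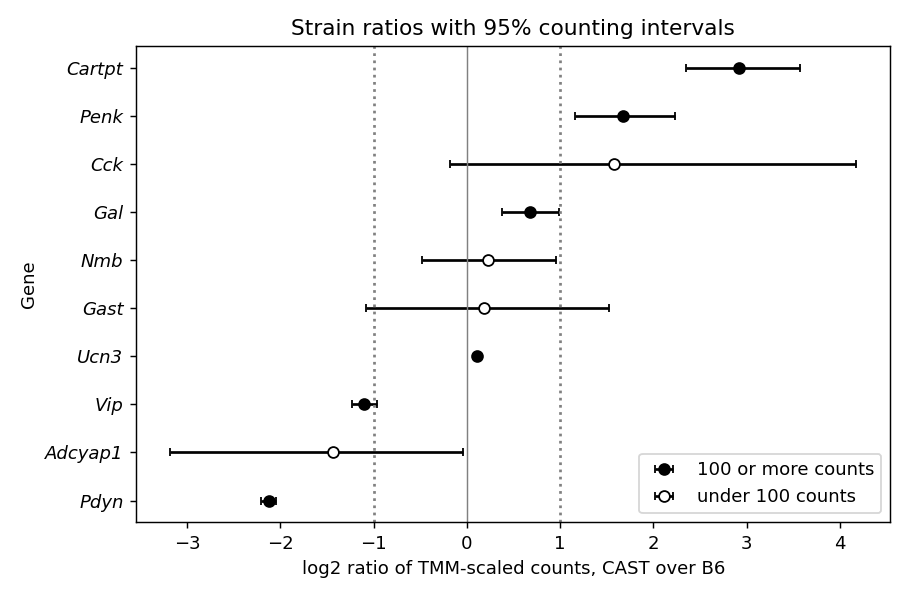
log2 ratio of TMM-scaled counts, CAST over B6, for the 10 genes; bars are 95% counting intervals, filled points have 100 or more counts over both libraries, open points fewer, and dotted lines mark 2-fold. Pdyn and Vip lie below the lower line and Cartpt and Penk above the upper one. The open points have wide intervals, and of them Adcyap1 lies below the lower line and Cck above the upper one.

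Ucn3 (ENSMUSG00000044988, chromosome 13, 3940688 to 3945349) had 50445 counts in CAST and 38277 in B6. By TPM it ranked 136th of all genes in CAST and 118th in B6. Its log2 ratio was 0.11 (0.09 to 0.13), the smallest in size of the 10 genes, and it was -0.24 from the deposited fractions as TPM with a pseudocount of 1 and -0.05 with total-count scaling, so its direction depends on the scaling. Markers of beta cells, which make this peptide, had a median log2 ratio of 0.11 over 8 genes on the TMM scale, with none 2-fold apart. The single markers spread from -0.38 for G6pc2 to 0.63 for Slc2a2, and whether Ucn3 follows beta cell content was not tested.

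The opioid precursors differed in opposite directions. Pdyn (ENSMUSG00000027400, chromosome 2, 129686565 to 129699844), the precursor of the dynorphins, had 1446 counts in CAST and 5168 in B6, or 6.35 TPM in CAST and 34.9 TPM in B6. It was 4.37-fold higher in B6 (log2 ratio -2.13, -2.21 to -2.04), and 173 of the 14768 genes had a lower ratio. The transcript Pdyn-201, with 4 exons and 2386 bases, carried the gene in both libraries, at 97.6% of its TPM in CAST and 98.8% in B6. Penk (ENSMUSG00000045573, chromosome 4, 4133531 to 4138819), the precursor of the enkephalins, was the reverse case, with 149 counts in CAST and 38 in B6, or 1.41 TPM in CAST and 0.471 TPM in B6. It was 3.18-fold higher in CAST (log2 1.67, 1.16 to 2.24). By TPM with a pseudocount of 1, which weighs down low genes, its log2 ratio was 0.71 and no longer 2-fold.

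Penk was divided differently between its transcripts. Penk-201, with 2 exons and 1449 bases, had 109.2 expected counts in CAST and 34.7 in B6, and held 56.3% of the gene's TPM in CAST and 83.1% in B6. Penk-202, with 3 exons and 721 bases, had 39.8 expected counts in CAST and 3.31 in B6. The counts behind these shares are small, and the uncertainty of the division between transcripts was not analysed here. Of the other genes, Nmb also had several transcripts, and 7 genes were listed with a single transcript in the files.

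**Figure D3:**
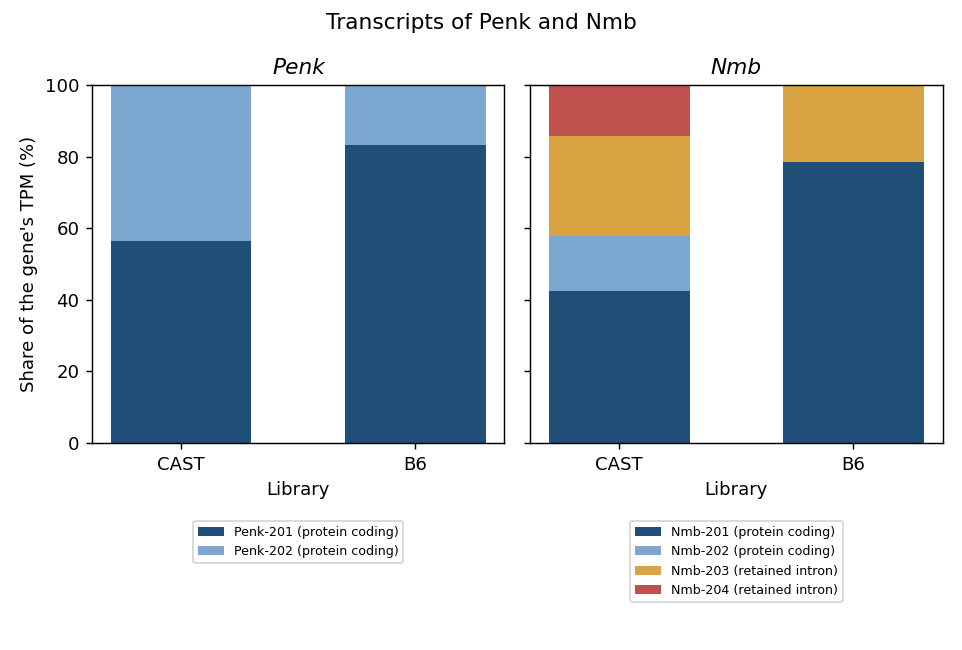
Share of the gene's TPM (%) carried by each annotated transcript of Penk and Nmb, with the CAST library left of the B6 library in each panel. The main transcript holds 56.3% in CAST and 83.1% in B6 for Penk, and 42.6% in CAST and 78.5% in B6 for Nmb.

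Cartpt (ENSMUSG00000021647, chromosome 13, 99898489 to 99901091), which encodes the CART peptides of neurons and neuroendocrine cells, had 243 counts in CAST and 26 in B6. Its level was 3.04 TPM in CAST and 0.506 TPM in B6. With a ratio of 7.54-fold (log2 2.91, 2.35 to 3.58) it stood furthest from equality among the 10 genes, and 350 of the 14768 genes had a higher ratio. The lower end of its interval lies beyond 4-fold. By TPM with a pseudocount of 1 the log2 ratio of Cartpt was 1.42, and Pdyn stood further from equality at -2.29.

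Of the VIP and PACAP pair of nerve peptide precursors, Vip was lower in CAST and Adcyap1 had too few counts for a call. Vip (ENSMUSG00000019772, chromosome 10, 5639218 to 5647617) had 695 counts in CAST and 1218 in B6, or 4.77 TPM in CAST and 13.0 TPM in B6. It was 2.14-fold higher in B6 (log2 -1.10, -1.23 to -0.96), and the interval crosses 2-fold. Adcyap1 (ENSMUSG00000024256, chromosome 17, 93199017 to 93206537), the PACAP precursor, had 6 counts in CAST and 14 in B6, or 0.0297 TPM in CAST and 0.108 TPM in B6. Its log2 ratio of -1.43 had an interval of -3.18 to -0.04, so that at this depth its size is barely bounded. Gal (ENSMUSG00000024907, chromosome 19, 3409915 to 3414544), the galanin precursor, went the other way, with 265 counts in CAST and 135 in B6, or 4.16 TPM in CAST and 3.30 TPM in B6. Its log2 ratio was 0.68 (0.38 to 0.99), which is under 2-fold over the whole interval.

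**Figure D4:**
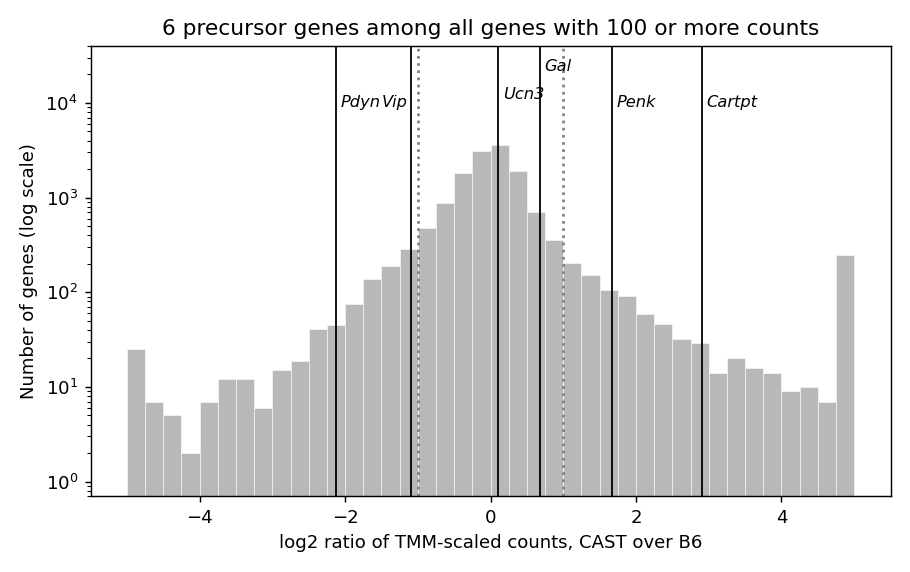
Number of genes (log scale) by log2 ratio of TMM-scaled counts, CAST over B6, for the 14768 genes with 100 or more counts; the outermost bars also hold all genes beyond them, and dotted lines mark 2-fold. Black lines give the 6 precursor genes with enough counts, of which Ucn3 falls near the centre and Pdyn and Cartpt in the tails.

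The remaining precursors had too few counts for a call. Nmb, which encodes the bombesin-like peptide neuromedin B, had 43 counts in CAST and 30 in B6, at 0.782 TPM in CAST and 0.787 TPM in B6 (log2 ratio of counts 0.23, -0.48 to 0.95). Its direction changed with the transcripts counted, since Nmb-201 alone gave log2 -0.53, and the retained-intron transcripts Nmb-203 and Nmb-204 had 10.1 and 4.75 expected counts in CAST against 5 and 0 in B6. Gast (ENSMUSG00000017165, chromosome 11, 100334407 to 100336996) had 14 counts in CAST and 10 in B6 (log2 0.19, -1.08 to 1.53). Cck (ENSMUSG00000032532, chromosome 9, 121489824 to 121495694) had 12 counts in CAST and 3 in B6 (log2 1.57, -0.18 to 4.18). The intervals of Nmb, Gast and Cck include equality, so counting error alone leaves the direction of their ratios unsettled.

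The tissue label was checked against markers of islet cells and of cells that isolated islets can carry. Beta cell markers summed to 557076 TPM in CAST and 489743 TPM in B6. The 6 alpha cell markers summed to 39337 TPM in CAST and 65930 TPM in B6 (median log2 ratio -0.79), and the 4 delta cell markers to 3630 TPM in CAST and 8524 TPM in B6 (median -0.84). The 2 markers of PP and epsilon cells, Ppy and Ghrl, which encode pancreatic polypeptide and ghrelin, summed to 6345 TPM in CAST and 5169 TPM in B6 (median 1.20), and Ghrl was 3.38-fold higher in CAST. All 10 acinar markers were at least 2-fold higher in CAST, with a sum of 18165 TPM in CAST and 6223 TPM in B6. Among them Amy2a5 has near-identical copies, so its own count rests on a division between them. Amy2a2, Amy2a3 and Amy2a4 each had 269475 counts in CAST and 94941 in B6. The copy Amy2b had 703091 counts in CAST and 368 in B6, and Amy2a1 had 0 in both. Of 12 neuronal markers 4 were detected at a TPM of 1 or more in CAST and 7 in B6, and all 12 had counts in both libraries. Their summed level of 198 TPM in CAST and 81.6 TPM in B6 came mostly from Th, the gene of the first enzyme of catecholamine synthesis, at 174.8 TPM in CAST and 47.0 TPM in B6, while the median log2 ratio of the 11 markers with 20 or more counts was -0.37. The 7 Schwann cell markers summed to 23.5 TPM in CAST and 35.2 TPM in B6, with a median log2 ratio of 0.11. Markers of duct, endothelial, leukocyte and stellate cells had median log2 ratios between 0.35 and 1.23 on the TMM scale. Their sums are in TPM, a different scale, so the direction of a sum and of a median cannot be compared directly. Over 14768 genes the median log2 ratio was 0.02 on the TMM scale and -0.26 by TPM with a pseudocount of 1. Summed TPM was 94.9 in CAST and 113 in B6 for duct and 184 in CAST and 198 in B6 for endothelial markers. It was 13.4 in CAST and 18.4 in B6 for leukocyte and 78.4 in CAST and 62.9 in B6 for stellate markers. As a share of all counts, endothelial markers held 0.0472% in CAST and 0.0441% in B6, and stellate markers 0.0264% in CAST and 0.0211% in B6. Duct markers held 0.0207% in CAST and 0.0257% in B6, and leukocyte markers 0.00335% in CAST and 0.00348% in B6. No marker of any list was at 0 counts in either library. The part of cell content in the ratios of Pdyn, Vip, Penk and Cartpt was not tested. The build named, GRCm38, is of the B6 strain, and whether CAST variants were allowed for when reads were assigned is not given. The part of strain variants in these ratios was not tested either.

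Receptors for the peptides were mostly low and included genes with larger ratios than the precursors. Of 15 receptor genes 14 were listed under their symbol and 11 had 20 or more counts over both libraries. Of these 11, 4 were at least 2-fold apart, 3 with the higher value in CAST (9.17% of the 17282 genes with 20 or more counts) and 1 with the higher value in B6 (8.12%). Their median log2 ratio was 0.24, against 0.01 over those 17282 genes. Vipr1, a receptor of VIP and PACAP, had the highest mean level, at 20.6 TPM in CAST and 23.5 TPM in B6 (log2 ratio 0.18, 0.14 to 0.23). Nmbr, the neuromedin B receptor gene, had 225 counts in CAST and 8 in B6 (log2 4.45, 3.52 to 5.75). Cckar, the CCK receptor gene that is known from acinar cells, had 3543 counts in CAST and 254 in B6, 11.4-fold higher in CAST (log2 3.51, 3.33 to 3.70). The median log2 ratio of the acinar markers given above was 1.86, and their part in the ratio of Cckar was not tested.

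Galr1, a galanin receptor gene, was the receptor higher in B6, at 3.19 TPM in CAST and 13.4 TPM in B6 (log2 ratio -1.73, -1.84 to -1.62). Galr2 was within 2-fold, at 2.66 TPM in CAST and 2.38 TPM in B6. For urocortin 3, its receptor gene Crhr2 had 1.22 TPM in CAST and 1.01 TPM in B6, and Crhr1, whose product binds the related peptide CRH, had 593 counts in CAST and 209 in B6 (log2 1.21, 0.99 to 1.45). The opioid receptors were at the limit of detection. The kappa receptor gene Oprk1, whose product is the dynorphin receptor, had 0 counts in both libraries, which allows up to 3 counts in each, the delta receptor gene Oprd1 had 17 in CAST and 28 in B6, and the mu receptor gene Oprm1 had 2 in CAST and 3 in B6. The second CCK receptor gene, Cckbr, which also serves gastrin, had 1 count in CAST and 9 in B6.

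**Figure D5:**
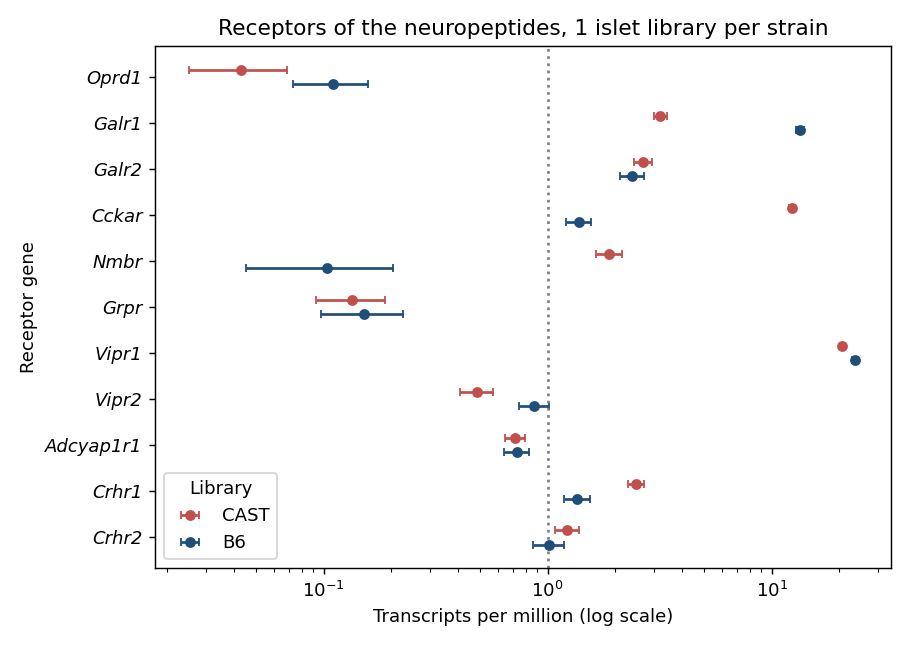
Level in TPM on a log axis of the 11 receptor genes with 20 or more counts, grouped by ligand, with CAST (red) above B6 (blue); bars are 95% Poisson counting intervals and the dotted line is a TPM of 1. Cckar and Nmbr lie higher in CAST and Galr1 higher in B6, while Vipr1 is high in both libraries.

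Genes whose products cut and finish these precursors were all detected in both libraries, 13 of 13 at a TPM of 1 or more. The log2 ratios had a median of -0.14, and 3 genes were at least 2-fold apart, Scg5 and Qpct toward CAST and Tpst1 toward B6. With 17.3% of the 17282 genes with 20 or more counts at least 2-fold apart, 3 of 13 is near the background. Cpe, the carboxypeptidase that trims basic residues, was the most abundant, at 1806 TPM in CAST and 2184 TPM in B6. Pcsk2, a convertase that cuts opioid precursors, had 665 TPM in CAST and 976 TPM in B6 (log2 ratio of counts -0.21). Scg5, whose product is the chaperone of that convertase, was at 1354 TPM in CAST and 685 TPM in B6 (log2 1.33). Qpct, which forms terminal pyroglutamate, had 3823 counts in CAST and 269 in B6 (log2 3.54), and Tpst1, one of the enzymes that sulfate tyrosines such as that of CCK, had 1192 in CAST and 2258 in B6 (log2 -1.21).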

How the data were processed

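The authors deposited, for each of 2 libraries, 2 values for 94545 transcripts, without a header; RSEM and the build GRCm38 are named in the submitters' processing notes. The first deposited value was read as RSEM's expected count and the second as the fraction of all transcript molecules, which no header states. The deposited fraction summed to 1 per file, and dividing the count by it gave values that track transcript length (rank correlation 0.965 over 10747 transcripts in CAST and 0.962 over 9697 in B6, each with 1000 or more counts). Every TPM printed is this fraction rescaled. For the aligner, versions, annotation, strand setting and read layout nothing is given in the sources used here. Expected counts were summed per Ensembl gene and rounded. Symbols came from GENCODE M21 (GRCm38), for 37607 of 38924 gene IDs; IDs without one held 0.172% of counts in CAST and 0.176% in B6. TMM factors (edgeR 4.0.16, R 4.3.3) were 0.947 for CAST and 1.06 for B6. For each ratio, the share of reads from CAST was given an exact Clopper-Pearson 95% interval, which was converted to a log2 ratio; levels carry exact Poisson intervals. Copies were searched with minimap2 2.31 between the longest transcripts (95% identity, 200 or more bases, 50% or more of the shorter transcript). The ratio computation was run on simulated Poisson counts drawn with the same library scaling. These hold no variation between mice or in read assignment, so the run checks the arithmetic only.

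All 10 member genes are named; of each related list, genes at least 2-fold apart with 20 or more counts and the 3 of highest mean TPM; other receptors were named to complete the ligands, and 3 genes of the lists (Galr3, Kiss1 and Slc18a3) are not analysed here. Members and lists were chosen with earlier results of these data known. Alternatives were DESeq2 1.42.0 size factors, total counts, TPM with a pseudocount of 1, other count minimums, thinning, the main transcript alone and copies added. Scripts ran in Python 3.11.15 with pandas 2.3.3, scipy 1.17.1, numpy 2.4.6 and, for plots, matplotlib 3.10.9. The study's protein part was not analysed here.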

Additional observations from a re-analysis of the deposited data

How the results depend on the processing

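The count of precursor genes at least 2-fold higher in CAST was 2 and moved to 1 by TPM with a pseudocount of 1, where Penk came to log2 0.71; with no count minimum beyond 1 count it was 3, with Cck. The count higher in B6 was 2 and came to 3 with a minimum of 20 counts or of 1, with Adcyap1. With the 8 hormone and 10 acinar genes left out of the total, the share held by the 10 genes was 0.0733% in CAST and 0.0787% in B6. The near-identical copies of Amy2a5 stayed in that total, among them Amy2b with 703091 counts in CAST and 368 in B6. Over 9 alternatives Pdyn ranged from log2 -2.29 to -2.12, Vip from -1.28 to -1.09, Cartpt from 1.42 to 2.92, Penk from 0.71 to 1.67 and Gal from 0.26 to 0.74, each with 1 direction. Nmb changed direction with the main transcript alone (-0.53) and by TPM (-0.0043), Gast by TPM (-0.04), and Ucn3 by TPM (-0.24) and with total counts (-0.05). Of 90 single-gene values 37 were identical to the main value, among them all under the other count minimums and with copies added, which cannot move these ratios; of the other 53, 42 stayed inside the counting interval and 11 did not. Total-count scaling and TPM moved the median of all genes to -0.14 and -0.26, and the share of 2-fold genes that were higher in CAST was 54.5% on the TMM scale, 44.2% after total-count scaling and 38.6% by TPM. By counts per kilobase of the longest transcript Gal came before Vip in CAST, and Cartpt after Gast in B6. No paired analysis was possible because each strain has 1 library.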

Other observations

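Enzymes that break down neuropeptides outside cells or in the cytosol were listed after the data had been seen, and none was chosen for its value. Of 16 such genes 14 were detected at a TPM of 1 or more in each library, and 3 were at least 2-fold apart (Mme and Fap toward CAST, Enpep toward B6), with a median log2 ratio of -0.07. Across the 17282 genes with 20 or more counts 17.3% were at least 2-fold apart, so 3 of 16 is near the background. Enpep, the membrane aminopeptidase A, had 997 counts in CAST and 3805 in B6 (log2 -2.22, -2.32 to -2.12). Mme, neprilysin, which cleaves enkephalins, had 31 counts in CAST and 1 in B6 (log2 4.15, 2.08 to 10.0). Fap had 115 counts in CAST and 40 in B6. The 3 of highest mean level were Ece1, an endothelin-converting enzyme, at 84.8 TPM in CAST and 131.2 TPM in B6, Npepps, a cytosolic aminopeptidase, at 34.9 TPM in CAST and 46.9 TPM in B6, and Anpep, aminopeptidase N, at 34.3 TPM in CAST and 42.7 TPM in B6. On the TMM scale the log2 ratios of these 3 lay between -0.28 and 0.02.

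A list of further neuropeptide precursors, which left out the islet hormones and the neuropeptide Y family, held mostly scarce genes. Of 32 listed genes 4 reached a TPM of 1 in CAST and 3 in B6, 10 had 0 counts in both libraries, and 10 had 20 or more counts. Of all 38924 genes, 12540 reached that TPM in CAST and 12811 in B6. Among the 10 with 20 or more counts, 3 differed by 2-fold or more, Tac1 and Pnoc toward CAST and Grp toward B6. The background share was 17.3% of the 17282 genes with 20 or more counts, and the difference from it was not tested. Tac1, the substance P precursor, had 247 counts in CAST and 87 in B6 (log2 1.21, 0.86 to 1.59), and Pnoc, the nociceptin precursor, 113 in CAST and 40 in B6 (log2 1.20, 0.68 to 1.77). Grp, which encodes gastrin-releasing peptide, a relative of neuromedin B, had 6 counts in CAST and 32 in B6 (log2 -2.60, -4.25 to -1.43). Pomc, the precursor of a further opioid, had 2.34 TPM in CAST and 5.15 TPM in B6 (log2 ratio of counts -0.79), and Calca 1.41 TPM in CAST and 1.43 TPM in B6.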
